A study of Chlamydomonas reinhardtii with 9 samples.

Results

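The comparison set B6-F_resc, the strain labelled as CEHC1 rescued, against B6-F, the cehc1-1 mutant, in the green alga Chlamydomonas reinhardtii. It used 6 of the 9 RNA-seq libraries of the study, chosen by their strain labels: 3 cultures of the rescued strain and 3 of the mutant. The other 3 libraries, of the wild-type strain B6, are given beside the results as levels only and entered no test. All cultures grew in aerated TAP medium, which contains acetate and copper, in daily cycles with 14 h light and 10 h dark, and were collected 6 h after lights came on. Each genotype was 1 strain, so the rescue rests on 1 strain. Which promoter drives its CEHC1 copy is not stated in the labels. Values were FPKM, the fragments of a gene scaled by transcript length and sequencing depth. Tests covered 11611 of 17609 gene models, those that averaged 1 FPKM or more in these 6 libraries.

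Chlamydomonas answers a shortage of copper through the transcription factor CRR1, which turns on copper transporters and enzymes that stand in for copper proteins, such as the heme protein cytochrome c6 in place of plastocyanin. When oxygen runs out, the alga makes hydrogenases and fermentative enzymes, and several of these genes also need CRR1. Cells in light and air with enough copper keep both sets low and invest instead in chloroplast ribosomes, pigments and photosystems, most of whose proteins are encoded in the nucleus.

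CEHC1, listed in the files by its identifier Cre01.g005900 alone, had 26.2, 25.4 and 27.9 FPKM in the 3 rescued libraries, against 17.4, 18.05 and 16.2 FPKM in the 3 mutant libraries. The 2 strains did not overlap, and the log2 difference (0.59, SE 0.07, adjusted p = 0.00024) lay below the size set for a call. The wild type had 9.10, 7.07 and 9.77 FPKM. The mutant thus had CEHC1 reads, and the labels do not state how the lesion alters the transcript. CRR1 had 64.8, 47.8 and 53.5 FPKM in rescued libraries and 55.6, 58.7 and 63.4 FPKM in mutant libraries, which overlapped (log2 difference -0.10, SE 0.11, adjusted p = 0.45); after quantile normalization the difference was -0.47 (limma, adjusted p = 0.015).

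Libraries of a strain resembled each other more than those of different strains, with correlations over genes of 0.990 to 0.995 within and 0.935 to 0.952 between the 2 strains. Summed FPKM were 888153 to 1002223 in the rescued strain and 592929 to 645234 in the mutant, and the 100 genes of highest level took 61.0% to 61.6% of the sum in the rescued strain and 54.3% to 55.7% in the mutant. The share of genes called higher in the rescued strain, by the rule given next, differed with level, at 1.33% of genes with means of 1 to 3 FPKM, 14.5% of genes with 30 to 100 FPKM and 25.0% of genes at 1000 FPKM or more. The part of this scale difference in the results was not tested, so values after quantile normalization, which gives all libraries 1 distribution, stand beside the results they change. That method works on ranks, so a gene of the same rank in all libraries gets a difference of 0.00 whatever its FPKM. The strains also differed at the mating-type locus. MID1, the minus mating-type determinant, had 2.89, 2.46 and 3.29 FPKM in the rescued libraries and was listed at 0 in every mutant and wild-type library. FUS1, a gene of the plus type, was listed at 0 in the rescued strain, with 0.228 to 0.323 FPKM in the mutant and 0.132 to 0.285 FPKM in the wild type. By these values the rescued strain differed from the mutant in more than CEHC1. Effects of CEHC1 and of any other difference between the 2 strains cannot be told apart.

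A gene was called when its adjusted p was under 0.05 (limma on log2(FPKM + 1), Benjamini-Hochberg over the 11611 genes) and its log2 difference, rescued minus mutant, was at least 1 in size. That held for 1065 tested genes (9.17%): in the rescued strain 618 (5.32%) were higher and 447 (3.85%) were lower. The split was 544 to 471 with median ratio rescaling and 426 to 458 with quantile normalization. Without the minimum difference 59.1% of tested genes had an adjusted p under 0.05 (limma). The strains did not overlap in 36.4% of tested genes on the higher side and 30.3% on the lower side. Counts given below for single lists are to be read against these shares of all tested genes. Over all tested genes the median was 0.04. It differed with level, from -0.12 in genes of 1 to 3 FPKM to 0.55 in genes of 1000 FPKM or more, and was 0.20 with a minimum mean of 5 FPKM. A log2(FPKM + 1) difference understates the change of genes with few FPKM. In these bulk cultures fewer cells of a stage and less RNA per cell cannot be told apart.

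Lists with mostly lower calls held copper response genes, hydrogenases, hybrid cluster proteins, secretory chaperones, wall enzymes, flagellar genes and DNA replication genes. Lists with mostly higher calls were nearly all of chloroplast functions.

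**Figure D1:**
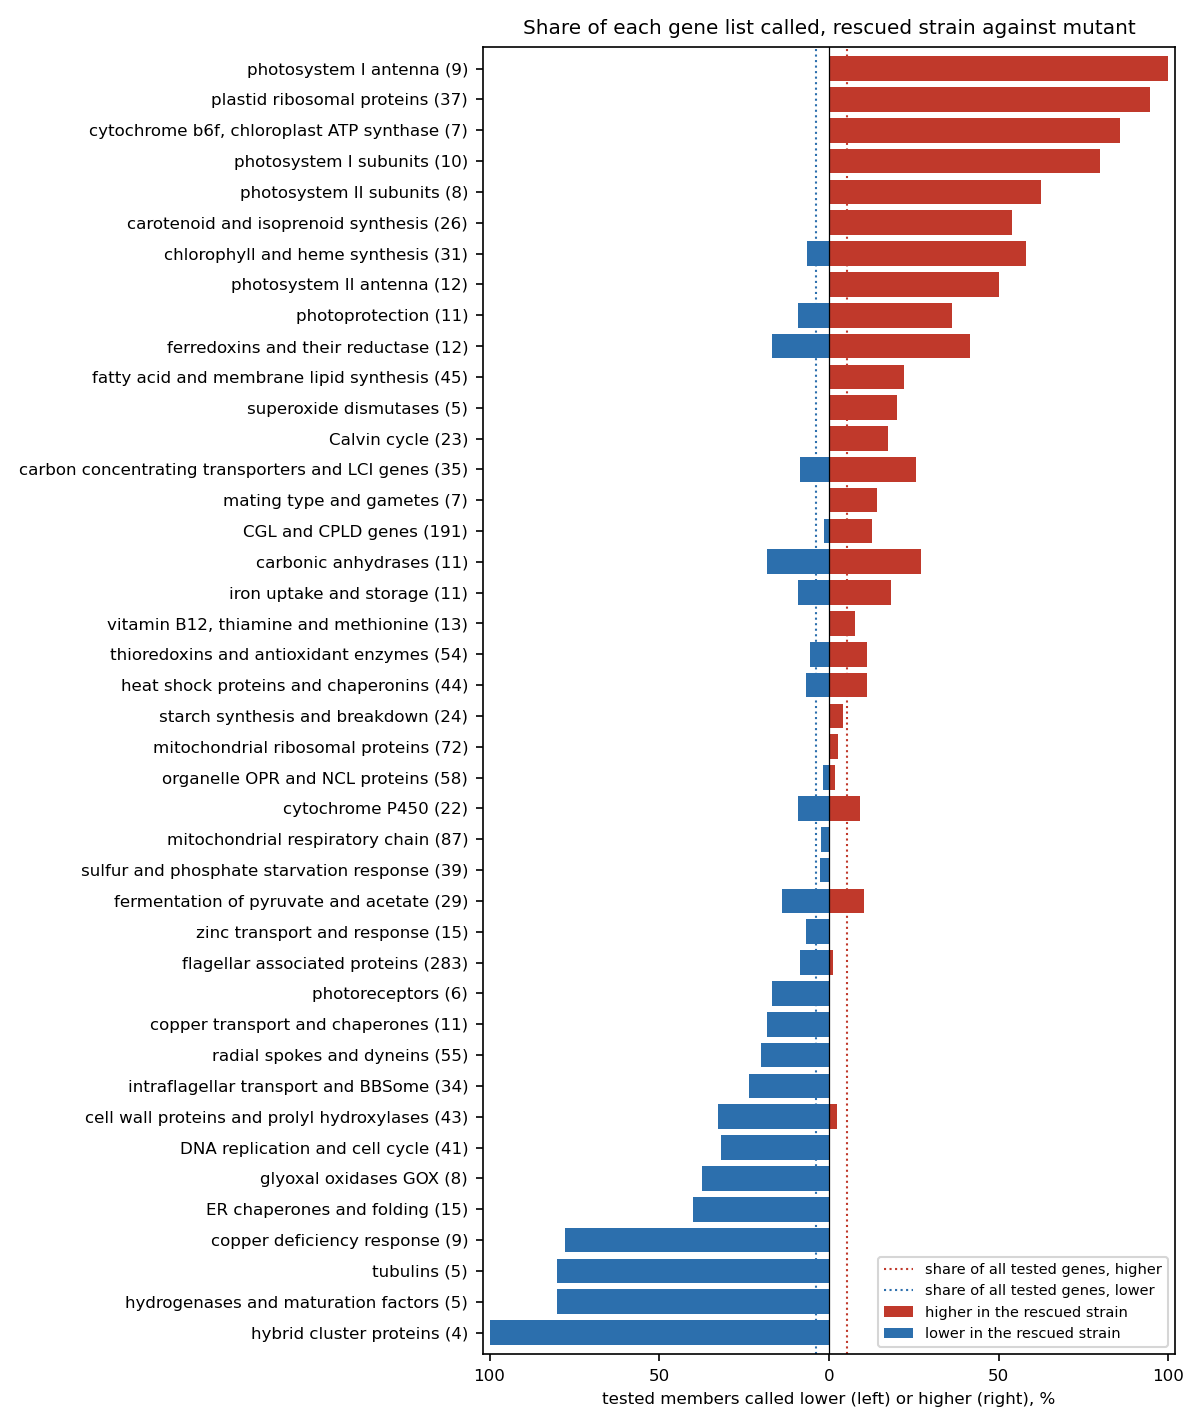
Share of tested members, in percent, called higher (red, right) or lower (blue, left) in the rescued strain than in the mutant, for each list with at least 4 tested members and at least 1 call; the number tested is in brackets and dotted lines mark the shares over all tested genes, 5.32% higher and 3.85% lower. Plastid ribosomal proteins and the photosystem I antenna stand at the top and the hybrid cluster proteins at the bottom; after quantile normalization no gene of the photosystem I antenna, photosystem II antenna, photosystem I subunit, photosystem II subunit or cytochrome b6f and ATP synthase lists was called.

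A small set of genes was nearly silent in the rescued strain. In 17 tested genes (0.146%) every rescued library was under 1 FPKM while every mutant library had at least 10 FPKM. None (0.0%) met the opposite pattern, and leaving out 1 rescued library gave between 0 and 3 such genes. With 5 FPKM in place of 10, the counts were 34 off and 8 on. Of the 17, 13 were under 1 FPKM in every wild-type library as well. The 9 with a symbol were CYC6, BIP2, PFH10, HYDG1, HYDEF1, HCP1, CLPD1, PRR1 and RSEP1, and CLPD1, PRR1 and RSEP1 were chosen for mention after their values were seen. RSEP1, a membrane-embedded protease, was listed at 0 in all 3 rescued libraries and had 11.5, 10.1 and 12.4 FPKM in the mutant. CLPD1, a chaperone of the Clp protease family, had 0.511, 0.291 and 0.333 FPKM in rescued libraries, against 16.8, 16.3 and 16.5 FPKM in mutant libraries, and the wild type kept 4.89 to 5.66 FPKM. Another of the 17, also chosen after its values were seen, has no symbol and lies on chromosome 6 by its identifier. It had 0 to 0.0242 FPKM in the rescued strain, 13.1 to 13.2 FPKM in the mutant and 19.6 to 21.4 FPKM in the wild type. For this gene the rescued strain thus stood apart from both others. Its identifier, Cre06.g253051, is numbered near Cre06.g252750, that of the plus mating-type gene FUS1, which was also listed at 0 in the rescued strain alone. Whether the mating-type difference between the strains accounts for these values was not tested.

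The copper deficiency list held the 2 deepest falls among genes with a symbol, CYC6 and FDX5. Of its 9 members 7 fell (3.85% of all tested genes did), none rose, and the list's median difference was -1.68 against 0.04 over all genes. CYC6, the gene of cytochrome c6, had 0.223, 0.113 and 0.187 FPKM in rescued libraries, against 502, 537 and 663 FPKM in mutant libraries. All 3 rescued libraries were near 0, as were those of the wild type with 0.122, 0.311 and 0.136 FPKM. The log2 difference was large beside the spread of libraries (-8.91, SE 0.11, adjusted p = 1.8e-09). FDX5, a ferredoxin of copper-poor and oxygen-poor cells, had 10.9, 8.20 and 8.77 FPKM in rescued libraries and 1572, 1595 and 2101 FPKM in mutant libraries, with 7.76, 8.49 and 6.47 FPKM in the wild type (-7.41, SE 0.14, adjusted p = 1.4e-08). FDX5 kept a low level in the rescued strain, where CYC6 had nearly none.

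In tetrapyrrole synthesis 2 pairs of isoforms moved in opposite directions. CHL27A, a subunit of the oxidative cyclase of chlorophyll synthesis that serves copper-poor cells, had 261, 171 and 224 FPKM in rescued libraries and 1068, 1102 and 1454 FPKM in mutant libraries (-2.47, SE 0.17, adjusted p = 1.3e-05). Its copper-replete counterpart CHL27B had 1569, 1755 and 1825 FPKM in rescued libraries and 498, 442 and 516 FPKM in mutant libraries (1.82, SE 0.09, adjusted p = 3.8e-06), so the order of the 2 isoforms turned round between the strains. CPX1, the coproporphyrinogen oxidase raised in copper-poor cells, fell by 1.84 on the log2 scale, with 279, 376 and 393 FPKM in rescued and 1127, 1072 and 1573 FPKM in mutant libraries, while CPX2 rose by 1.30. Plastocyanin, PCY1, had 13891, 15732 and 15474 FPKM in the rescued strain and 7586, 7409.6 and 8386 FPKM in the mutant. The libraries did not overlap, but the difference (0.95, SE 0.09, adjusted p = 7.3e-05) stayed under the size for a call. After quantile normalization it was 0.00, a value that method gives to any gene of equal rank in all libraries.

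Among copper transporters CTR3 fell, with 12.1, 9.92 and 11.1 FPKM in rescued and 33.8, 38.8 and 39.8 FPKM in mutant libraries (-1.68, SE 0.09, adjusted p = 6e-06), and CTR2 fell by 1.13 on the log2 scale. CTR1, at -0.70, and COPT1, at -0.18, were not called. In the wider list of copper transport and chaperones, which shares CTR1, CTR2, CTR3 and COPT1 with the deficiency list, 2 of 11 fell and none rose. Its member of highest level, the copper chaperone ATX1, had 194, 251 and 275 FPKM in the rescued strain and 168, 158 and 195 FPKM in the mutant, which overlapped.

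Hydrogenase genes were among the deepest falls. HYDA1, the main iron hydrogenase, had 8.99, 7.39 and 7.24 FPKM in rescued libraries, against 101, 100.05 and 95.9 FPKM in mutant libraries (-3.50, SE 0.09, adjusted p = 6.7e-08). HYDG1 and HYDEF1, which build the active site of the enzyme, had 0.0826, 0.0669 and 0.111 FPKM and 0.506, 0.594 and 0.470 FPKM in rescued libraries, against 37.9, 39.0 and 40.9 FPKM and 14.0, 12.2 and 13.3 FPKM in mutant libraries. No library of the rescued strain overlapped the mutant for any of these 3 genes (30.3% of all tested genes were lower without overlap). HYDA2, the second hydrogenase, fell by 2.30 on the log2 scale, and HYD3, at -0.25, was not called, so 4 of 5 members fell. HYDA1 and HYDA2 are similar in sequence, and how shared reads were assigned is not given.

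All 4 hybrid cluster proteins, iron-sulfur proteins of anaerobic and nitrogen metabolism, fell. HCP1 had 0, 0 and 0.0210 FPKM in rescued libraries and 14.7, 13.5 and 15.3 FPKM in mutant libraries (-3.94, SE 0.08, adjusted p = 1.8e-08); HCP3, HCP4 and HCP2 differed by -2.43, -1.95 and -1.15. These genes are close paralogs as well, and their levels in the mutant, apart from HCP1, did not exceed 8.24 FPKM. With a pseudocount of 5 in place of 1, 2 of the 4 were called.

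The list of fermentation genes, which also holds pyruvate kinases, a fumarase and a malic enzyme, had calls in both directions. Of 29 tested genes of pyruvate and acetate fermentation, 4 fell and 3 rose, both above the shares of all tested genes (3.85% fell and 5.32% rose). The median was 0.10, which turned to -0.05 after quantile normalization. The falls were PAT2 and ACK1, phosphate acetyltransferase and acetate kinase, the fumarase FUM1 and the malic enzyme MME3. PAT2 had 12.6, 11.4 and 12.9 FPKM in rescued and 33.6, 35.7 and 37.8 FPKM in mutant libraries (-1.46, SE 0.08, adjusted p = 4.4e-06). The rises were the pyruvate kinases PYK1 and PYK5, at 1.45 and 1.45, and the pyruvate decarboxylase PDC2, at 1.17. PFL1, pyruvate formate-lyase and the most abundant member, had 124, 106 and 105 FPKM in rescued and 183, 197 and 198 FPKM in mutant libraries; its difference of -0.78 was not called, and was -1.30 and called after quantile normalization. None of 8 tested truncated hemoglobins was called, with differences from -0.61 to 0.31; 4 had an unadjusted p under 0.05 (limma).

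Of 87 tested genes of the respiratory chain 2 fell (2.30%, against 3.85% of all tested genes) and none rose (5.32% of all tested genes did), with a median of 0.39 that turned to -0.11 after quantile normalization. AOX2, an alternative oxidase, had 0.203, 0.0257 and 0.0568 FPKM in rescued libraries and 9.53, 10.2 and 9.53 FPKM in mutant libraries (-3.30, SE 0.09, adjusted p = 9.5e-08), and NDA1, a type II NADH dehydrogenase, fell by 1.28 on the log2 scale.

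Chaperones of the endoplasmic reticulum fell in 6 of 15 tested members (9 after quantile normalization) and rose in none, with a median of -0.89. BIP2, an Hsp70 of the reticulum, had 0.212, 0.311 and 0.267 FPKM in rescued libraries, against 47.1, 64.7 and 87.8 FPKM in mutant libraries and 0.131, 0.172 and 0.139 FPKM in the wild type (-5.70, SE 0.19, adjusted p = 4.7e-07). BIP1, its more abundant relative, had 86.1, 81.1 and 87.7 FPKM in rescued and 348, 373 and 375 FPKM in mutant libraries (-2.09, SE 0.07, adjusted p = 4e-07). BIP1 was thus lowered where BIP2 was all but absent. How any reads shared by these relatives were assigned is not given. HSP90B, the Hsp90 of the reticulum, the calreticulin CRT2 and the disulfide isomerases PDI4 and PDI2 fell by 1.87, 1.13, 1.12 and 1.04. The oxidase ERO1, at -0.80, and the protein channel subunits SEC61A, SEC61G, SEC61B and SEC63, from -0.90 to -0.25, were not called. After quantile normalization SEC61A, SEC61G and SEC61B were called lower, at -1.40, -1.43 and -1.19. The list of heat shock proteins and chaperonins of all compartments, which includes HSP90B, was mixed: of 44 tested genes 3 fell and 5 rose, and the median was -0.05. Beside HSP90B the falls were HSP70G, with 19.9, 18.2 and 21.6 FPKM in rescued and 61.7, 61.4 and 66.3 FPKM in mutant libraries (-1.62, SE 0.08, adjusted p = 3.6e-06), and HSP70H, at -1.03, a call that was lost after quantile normalization. The subunits CCT1 to CCT9 of the cytosolic chaperonin had differences of -0.65 to -0.37, with no overlap between the strains (30.3% of all tested genes were lower without overlap) and no call. The rises were the chloroplast chaperonin genes CPN20, CPN60B2, CPN23 and CPN60A, from 1.14 to 1.43, and HSP70B, the chloroplast Hsp70, at 1.15. After quantile normalization CPN60A and HSP70B, at 0.87 and 0.61, were not called. No member of the 29 proteasome subunits was called, although 28 of them were below 0, with a median of -0.35. All 29 had an unadjusted p under 0.05 (limma), while 59.1% of all tested genes had even an adjusted p under 0.05 (limma).

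Wall and matrix enzymes gave several of the largest falls. Of 43 tested wall proteins, matrix proteases and prolyl hydroxylases, 14 fell and 1 rose. PFH10, a prolyl hydroxylase of the kind that modifies wall glycoproteins, had 0.457, 0.168 and 0.246 FPKM in rescued and 43.1, 38.3 and 40.7 FPKM in mutant libraries (-5.02, SE 0.10, adjusted p = 1.8e-08). PFH3, of the same family, had 10.5, 5.03 and 7.37 FPKM in the rescued strain and 147, 131 and 141 FPKM in the mutant (-4.07, SE 0.20, adjusted p = 3.6e-06). MMP3, a matrix metalloprotease, fell by 3.19 and the pherophorin PHC15, a wall glycoprotein, by 3.73, while the pherophorin PHC66 rose by 2.61, with 41.6, 35.9 and 47.7 FPKM in rescued and 7.73, 4.79 and 5.62 FPKM in mutant libraries. The family was mixed: 8 other tested PFH genes lay between -0.32 and 0.52 without a call, and PHC3, the most abundant member, differed by 0.50. Among 8 tested GOX genes, named as glyoxal or galactose oxidases, 3 fell, led by GOX17 with 0.885, 1.36 and 1.01 FPKM in rescued and 40.4, 32.1 and 52.9 FPKM in mutant libraries (-4.34, SE 0.17, adjusted p = 1.1e-06); GOX7 and GOX19 fell by 2.41 and 2.08.

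**Figure D2:**
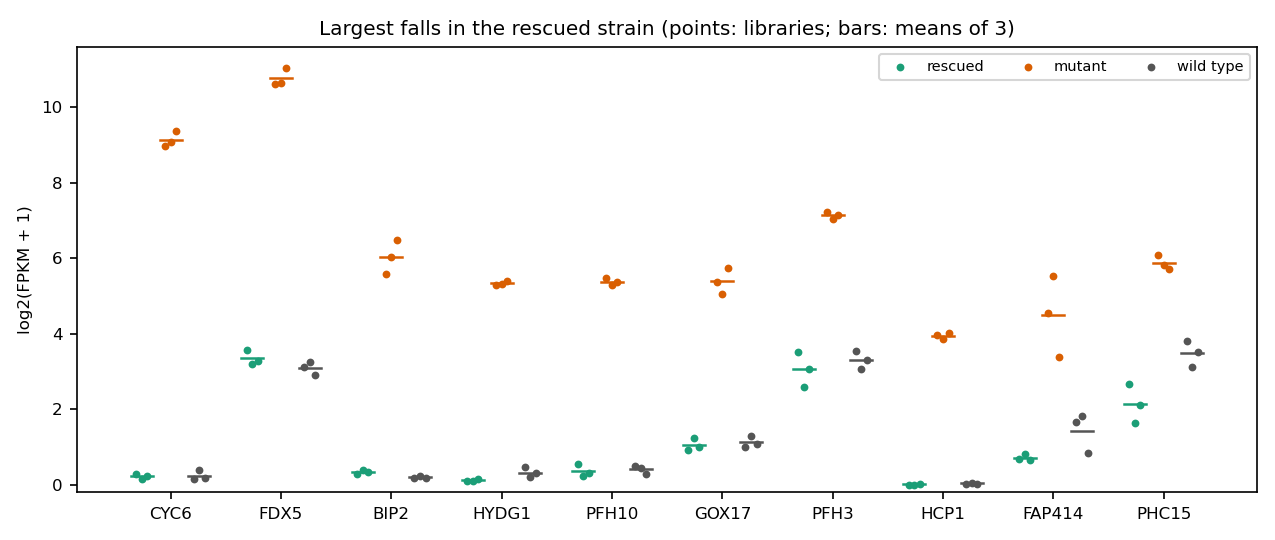
Level of the 10 named genes with the largest falls, as log2(FPKM + 1), in the rescued strain (green), the mutant (orange) and the wild type (grey); points are libraries and bars the means of 3. In each gene all 3 rescued libraries lie below all 3 mutant libraries, from CYC6 with a difference of -8.91 to PHC15 with -3.73; FAP414 spreads most in the mutant, from 9.44 to 44.9 FPKM.

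Flagellar genes were lower in broad but shallow fashion. Of 283 tested flagellar associated proteins (FAP genes, named from a flagellar proteome) 24 fell and 3 rose, with a median of -0.49. Over all tested genes 3.85% fell and 5.32% rose. The largest falls were FAP414, with 0.600, 0.763 and 0.586 FPKM in rescued and 22.5, 44.9 and 9.44 FPKM in mutant libraries, and FAP291, FAP310 and FAP212, which fell by 3.36, 3.00 and 2.97. The rises were FAP346, with 7.42, 7.44 and 6.17 FPKM in rescued and 0.179, 0.287 and 0.177 FPKM in mutant libraries, FAP269, with 165, 214 and 218 FPKM in rescued and 31.7, 25.2 and 32.8 FPKM in mutant libraries, and FAP340, chosen for mention after its values were seen. Radial spoke and dynein genes fell in 11 of 55 and intraflagellar transport and BBSome genes in 8 of 34, with medians of -0.72 in both lists. Of the 34 transport genes all lay below 0, and in 30 the strains did not overlap; over all tested genes 30.3% were lower without overlap. IFT88 and IFT81, subunits of the transport train, had 3.48, 1.42 and 2.92 FPKM and 3.29, 1.41 and 2.61 FPKM in rescued libraries, against 6.48, 6.57 and 6.90 FPKM and 6.102, 6.16 and 6.31 FPKM in mutant libraries. Rescued replicate 2 was the lowest of the 3 rescued libraries in both. Without it 1 transport and 5 dynein genes were called, without rescued replicate 1 they were 13 and 20, and with a pseudocount of 5 none was.

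Tubulins fell in 4 of 5 tested genes. TUB1, a beta tubulin, had 71.2, 27.4 and 48.7 FPKM in rescued and 136, 159 and 120.0 FPKM in mutant libraries (-1.57, SE 0.29, adjusted p = 0.0021), and TUA1, an alpha tubulin, had 159, 77.6 and 107 FPKM in rescued and 275, 309 and 281 FPKM in mutant libraries. The wild type had 219, 118 and 100.04 FPKM for TUB1, so its libraries overlapped the mutant there and not the rescued strain. The 2 beta and the 2 alpha tubulin genes are near-identical copies, so their separate values are uncertain.

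DNA replication and cell cycle genes fell in 13 of 41 tested members and rose in none, with a median of -0.61. All 6 subunits of the MCM helicase, which unwinds DNA at replication, were among them, from -2.37 for MCM6 to -1.49 for MCM5. MCM6 had 0.121, 0.197 and 0.0407 FPKM in rescued and 4.73, 7.77 and 2.87 FPKM in mutant libraries, with 1.88, 2.46 and 1.95 FPKM in the wild type. RIR1 and RIR2, subunits of ribonucleotide reductase, the mitotic cyclins CYCAB1 and CYCB1 and the kinase CDKB1 fell by 2.03, 2.06, 2.04, 1.52 and 1.64. CDKA1, the main cell cycle kinase, was at -0.04 and was not called. Mutant replicate 2 had the highest level of the 3 mutant libraries for MCM6, MCM2, MCM7 and RIR2; RIR2 had 0.0177, 0 and 0 FPKM in rescued libraries, against 2.76, 7.82 and 1.22 FPKM in mutant libraries. Without that library 8 members were called, and with a pseudocount of 5 1 was; these genes had few FPKM. Of 124 histone genes 4 reached the level for a test, and none of the 4 was called, with 3 at an unadjusted p under 0.05 (limma). Most of the others were listed at or near 0 in every library of this polyA RNA, wild type included, so the strains could not be compared for them.

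On the rising side, plastid ribosomal proteins, the nuclear-encoded subunits of the chloroplast's protein factory, moved as a block: 35 of 37 tested members rose (5.32% of all tested genes did) and none fell, with a median of 1.87. Their summed level was 10313 to 13930 FPKM in rescued libraries and 3285 to 3923 FPKM in mutant libraries, with 6797 to 7810 FPKM in the wild type, so the rescued strain stood above both. PRPS10, a small subunit protein, had 213, 298 and 264 FPKM in rescued and 48.5, 46.8 and 57.0 FPKM in mutant libraries (2.32, SE 0.13, adjusted p = 6e-06). PSRP3, PRPS13 and PRPL7 rose by 2.21, 2.19 and 2.17. The exceptions were PSRP4, at 0.78, and PSRP1, a ribosome hibernation factor, at -0.87. After median ratio rescaling 35 rose, and after quantile normalization 32 rose and PSRP1 fell.

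The other ribosomes did not take part to that degree. None of 70 tested cytosolic ribosomal proteins was called, although 65 were higher without overlap (36.4% of all tested genes were) and 68 had an unadjusted p under 0.05 (limma). Their median of 0.44 turned to -0.17 after quantile normalization. Of 72 mitochondrial ribosomal proteins 2 rose (5.32% of all tested genes did), MRPL6 and MRPL10, at 2.13 and 1.96. The other 70 had differences under 1, with a median for the list of 0.40. MRPL6 had 167, 235 and 202 FPKM in rescued and 39.2, 43.5 and 52.9 FPKM in mutant libraries, a change of the size seen in the plastid list. Whether these 2 proteins serve the mitochondrial ribosome cannot be read from expression values, and the symbol is the only basis for placing them there.

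Pigment synthesis rose strongly. Of 31 tested genes of chlorophyll and heme synthesis 18 rose, and the 2 that fell were CHL27A and CPX1, the enzymes shared with the copper list; the median was 1.38. UROD1, uroporphyrinogen decarboxylase, had 317, 486 and 463 FPKM in rescued and 57.3, 44.8 and 61.3 FPKM in mutant libraries (2.92, SE 0.18, adjusted p = 7.7e-06). GSA1, which makes the first dedicated precursor of the pathway, had 291, 381 and 377 FPKM in rescued and 51.3, 43.3 and 54.1 FPKM in mutant libraries (2.79, SE 0.13, adjusted p = 2.5e-06). In both genes the wild type, with 213, 157 and 200.4 FPKM and 179, 145 and 219 FPKM, lay between the strains without overlap. CHLP1, the geranylgeranyl reductase that completes the chlorophyll tail, rose by 2.49, and the magnesium chelatase subunits CHLI1 and CHLD1 by 2.41 and 2.31. The third chelatase subunit, CHLH1, was at 0.99 and was not called. After quantile normalization 16 rose and 2 fell.

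Carotenoid and isoprenoid synthesis rose in 14 of 26 tested genes, with none lower by a call and a median of 1.04 (10 after quantile normalization). GGPS1, which makes the chain from which carotenoids and the chlorophyll tail are built, had 204, 243 and 248 FPKM in rescued and 55.0, 50.5 and 56.7 FPKM in mutant libraries (2.07, SE 0.09, adjusted p = 2.4e-06). The chloroplast isoprenoid steps DXS1, DXR1, CMS1, CMK1, MEC1, HDS1 and IDS1 all rose, from 1.10 to 1.80, although DXS1 was not called after quantile normalization. The carotenoid desaturases PDS1 and ZDS1 rose by 1.48 and 1.61. The xanthophyll cycle enzymes ZEP1 and CVDE1, at 0.22 and -0.36, were not called.

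**Figure D3:**
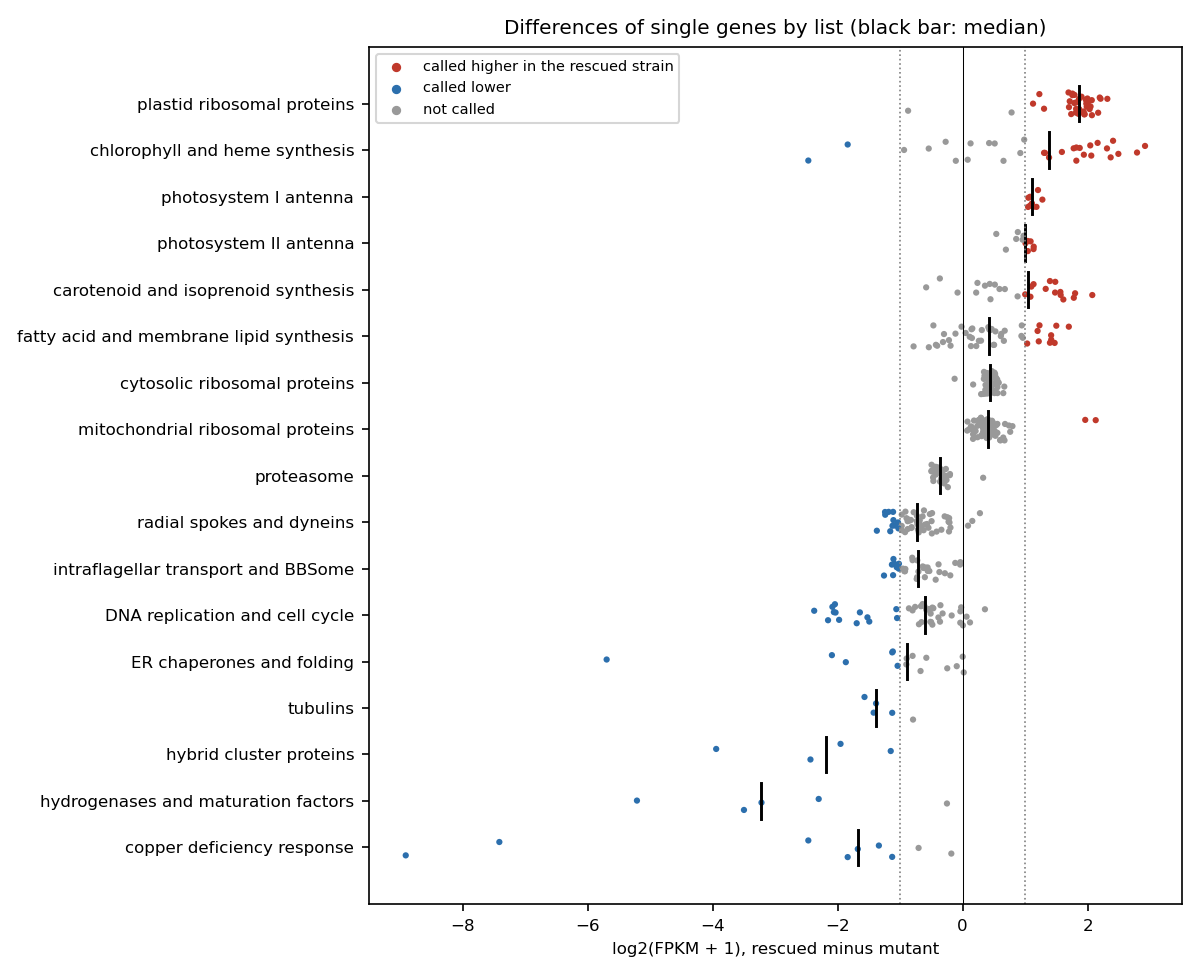
Difference in log2(FPKM + 1), rescued minus mutant, of single genes (points) in 17 lists, with red for called higher, blue for called lower and grey for not called; black bars are list medians and dotted lines mark differences of 1 and -1. Apart from PSRP1 and PSRP4 the plastid ribosomal proteins lie between 1.13 and 2.32, and the list has a median of 1.87. Cytosolic and mitochondrial ribosomal proteins have medians of 0.44 and 0.40, and the cytosolic median turned to -0.17 after quantile normalization.

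Photosystem and antenna genes were higher by a nearly uniform step. All 9 photosystem I antenna genes, 8 of 10 photosystem I subunits, 6 of 12 photosystem II antenna genes, 5 of 8 photosystem II subunits and 6 of 7 subunits of cytochrome b6f and the chloroplast ATP synthase were called higher, with medians from 0.99 to 1.14, close to the size that a call required. LHCA4, an antenna protein of photosystem I, had 4553, 4906 and 5225 FPKM in rescued and 1930.1, 1902 and 2234 FPKM in mutant libraries (1.28, SE 0.09, adjusted p = 1.7e-05). LHCBM1, a photosystem II antenna protein and the most abundant of these genes, had 42768, 46391 and 48983 FPKM in rescued and 24381, 24009.7 and 26451 FPKM in mutant libraries, a difference of 0.88 that was not called. In none of these 46 genes did the strains overlap (36.4% of all tested genes were higher without overlap). These genes are among the most abundant, where a large share of all genes was called higher. After quantile normalization no gene of the 5 lists was called and their medians were 0.12 to 0.63. That method gave LHCBM1 and LHCBM7, of equal rank in all libraries, 0.00 whatever their FPKM, so it cannot size their difference. The antenna genes share much sequence, and how shared reads were assigned is not given.

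Other chloroplast lists rose in part. In the Calvin cycle 4 of 23 rose, led by the aldolase FBA2 with 42.8, 51.4 and 46.9 FPKM in rescued and 14.9, 13.5 and 16.5 FPKM in mutant libraries (1.59, SE 0.10, adjusted p = 7.6e-06), and FBA2 alone was called after quantile normalization. RBCS2, the small subunit of Rubisco, had 26966, 28549.8 and 28342 FPKM in rescued and 14591, 13309 and 15289 FPKM in mutant libraries, a difference of 0.96 that was not called. Fatty acid and lipid synthesis rose in 10 of 45, among them the biotin carrier proteins BCC1 and BCC2 of acetyl-CoA carboxylase, at 1.50 and 1.70; quantile normalization left 2 higher and made 2 lower. Ferredoxins and their reductase split, with 5 of 12 higher, led by FDX3 and FDX4 at 1.91 and 1.49, and FDX5 and FDX9 lower, at -7.41 and -1.55. Of the higher genes FNR1 and FDX1, at 0.68 and 0.19 after quantile normalization, were then not called. Photoprotection genes rose in 4 of 11, all of the early light-induced ELIP family, with 248, 311 and 277 FPKM for ELIP8 in rescued and 53.1, 46.8 and 64.3 FPKM in mutant libraries; ELIP9 fell by 1.02, a call that was lost after quantile normalization.

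Genes of the carbon concentrating mechanism, which pumps inorganic carbon to Rubisco, were among the largest rises. LCI1, a carbon transporter of the plasma membrane, had 4.05, 19.6 and 17.3 FPKM in rescued libraries and 0.0816, 0.356 and 0.231 FPKM in mutant libraries (3.35, SE 0.46, adjusted p = 0.00047). CAH1, the periplasmic carbonic anhydrase, had 653, 1091 and 789 FPKM in rescued libraries and 103, 124 and 141 FPKM in mutant libraries (2.75, SE 0.19, adjusted p = 1.2e-05). RHP1, a Rh protein held to conduct carbon dioxide, is outside the lists of this mechanism but also rose. It had 151, 160.2 and 157 FPKM in rescued and 26.2, 26.1 and 26.7 FPKM in mutant libraries (2.52, SE 0.06, adjusted p = 6.5e-08). The wild type was above the mutant in all 3 genes, with 59.3, 54.5 and 13.3 FPKM for LCI1, so no wild-type library reached down to the mutant. Of 35 tested transporters and LCI genes 9 rose, among them the bestrophin BST1 and LCIB1 and LCIC1 at 1.54 and 1.83, and 3 fell. The list was not uniform: HLA3, at -0.09, and CCM1, its regulator, at 0.04, were not called, and LCI34 and LCI35 fell by 2.19 and 1.94. Among 11 tested carbonic anhydrases 3 rose and 2 fell. CAH1 and CAH2 are close copies, and CAH2, with 14.5, 22.6 and 13.8 FPKM in rescued and 4.08, 4.67 and 3.37 FPKM in mutant libraries, is uncertain for that reason.

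Further genes, from lists not named above or without a symbol, were also among the largest rises. MSD3, a manganese superoxide dismutase, had 37.4, 40.0 and 53.9 FPKM in rescued and 4.49, 1.47 and 2.94 FPKM in mutant libraries (3.55, SE 0.27, adjusted p = 1.8e-05), with 78.5, 87.1 and 45.7 FPKM in the wild type. It was the only 1 of 5 tested superoxide dismutases called. PRX6, a peroxiredoxin by its symbol, rose by 2.62, with 283, 363 and 329 FPKM in rescued and 52.1, 43.6 and 60.4 FPKM in mutant libraries. Of genes without a symbol, Cre09.g397623 had 80.5, 76.2 and 80.5 FPKM in rescued and 7.40, 8.13 and 7.18 FPKM in mutant libraries (3.23, SE 0.07, adjusted p = 3.6e-08). Cre03.g800366 had 18.7, 7.59 and 10.7 FPKM in rescued libraries and was listed at 0 in every mutant library, but 1 wild-type library was also listed at 0. The largest falls without a symbol were Cre08.g372200, with 0.669, 0.417 and 0.460 FPKM in rescued and 882, 903 and 1036 FPKM in mutant libraries (-9.28, SE 0.09, adjusted p = 7.9e-10), and Cre01.g029700, with 0.677, 0.533 and 0.841 FPKM in rescued and 169.9, 214 and 218 FPKM in mutant libraries (-6.90, SE 0.11, adjusted p = 9.5e-09).

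**Figure D4:**
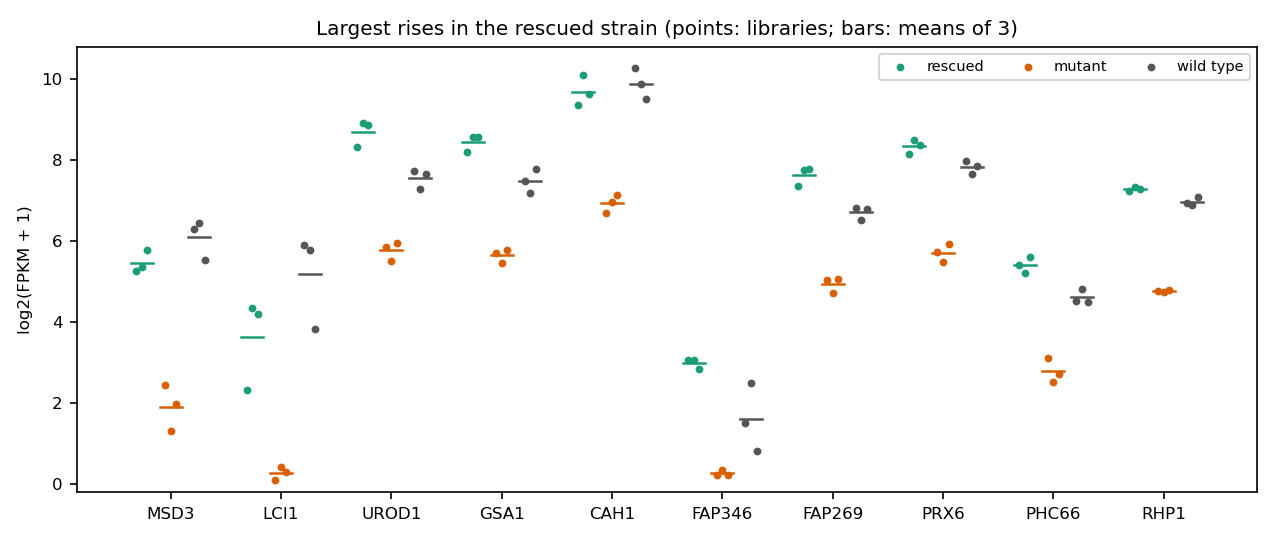
Level of the 10 named genes with the largest rises, as log2(FPKM + 1), in the rescued strain (green), the mutant (orange) and the wild type (grey); points are libraries and bars the means of 3. All rescued libraries lie above all mutant libraries in each gene; LCI1 spreads most in the rescued strain, from 4.05 to 19.6 FPKM, and every wild-type library also lies above the mutant.

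Several families had no difference of the size that a call required. Genes of acetate use and the glyoxylate cycle had no call among 14 tested and 12 at an unadjusted p under 0.05 (limma), with a median of 0.36 that turned to -0.08 after quantile normalization. ICL1, isocitrate lyase, overlapped between the strains, with 2055, 1891 and 2451 FPKM in rescued and 1643, 1563 and 1947 FPKM in mutant libraries. No call fell on 32 ubiquitin and ubiquitin ligase genes, 24 translation initiation factors, 29 chloroplast proteases, 19 nitrogen assimilation genes, 12 autophagy genes, 10 silencing genes or 7 zygote genes. In that order 15, 16, 22, 15, 3, 5 and 7 of them had an unadjusted p under 0.05 (limma), and quantile normalization gave 1 call, a rise among the nitrogen genes. Of 58 tested OPR and NCL genes, which act on organelle RNA, 1 rose and 1 fell (5.32% and 3.85% of all tested genes did). A gene without a call is not shown to be equal in the 2 strains, since 59.1% of all tested genes had an adjusted p under 0.05 when no minimum difference was asked (limma).

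**Figure D5:**
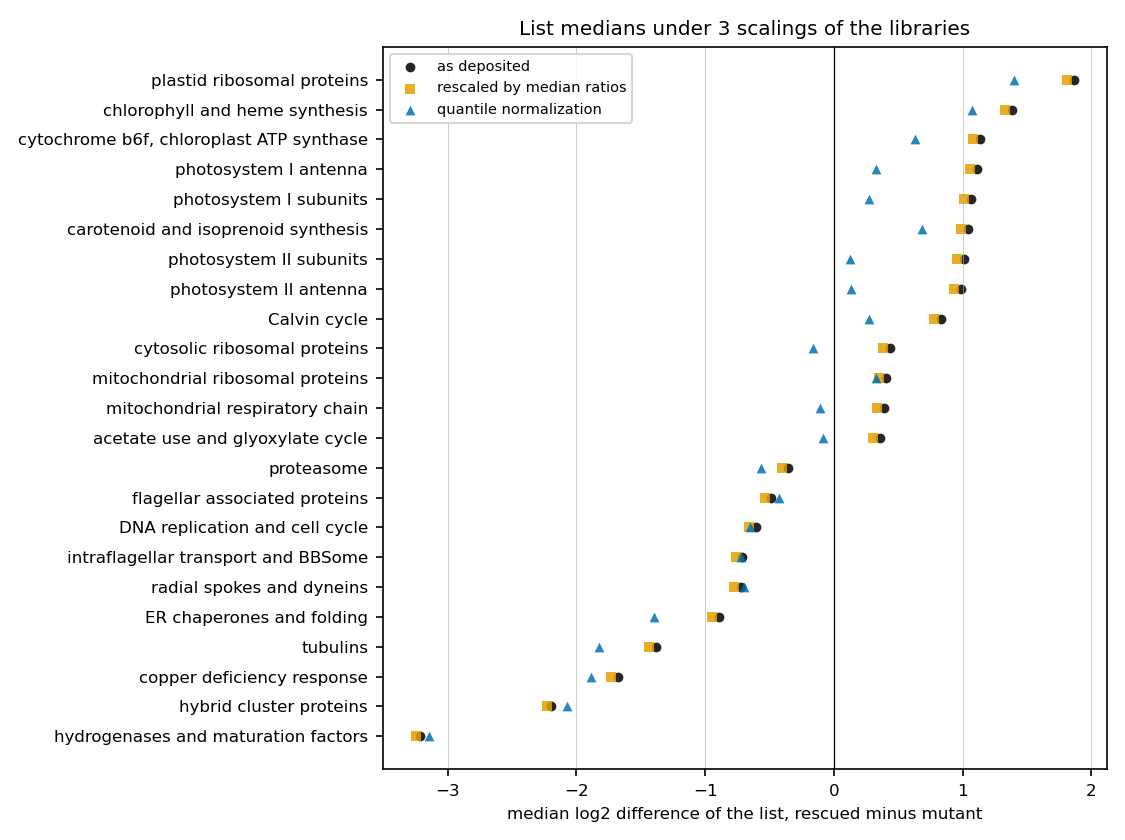
Median difference in log2(FPKM + 1), rescued minus mutant, of 23 gene lists with the FPKM as deposited (black circles), rescaled by median ratios (orange squares) and quantile normalized (blue triangles). The lists with negative medians kept their side under all 3; the medians of cytosolic ribosomal proteins, the respiratory chain and acetate use turned negative after quantile normalization, and those of the photosystem and antenna lists shrank to between 0.12 and 0.33.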

How the data were processed

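PolyA RNA of 9 cultures was read from both ends at 125 bp, per the labels' protocols. The authors deposited FPKM per gene and library, named as such by the tables; STAR 2.7.10b and Cuffdiff 2.0.2 are named in the submitters' processing notes, without their roles. The genome build, strand handling and treatment of shared reads are not stated in the labels, identifiers carry annotation version 6.1, and depth is unknown, since low values did not fall on steps of whole reads.

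Groups and replicate numbers came from the sample titles. Genes that averaged 1 FPKM or more in the 6 libraries were fitted as log2(FPKM + 1) with limma 3.58.1 (R 4.3.3), with an intensity trend and 4 residual degrees of freedom before moderation, and Benjamini-Hochberg adjustment over 11611 genes. The labels speak of separate cultures; p-values measure the spread between cultures of 1 strain each. The fit was tested on simulated data. Alternatives changed pseudocount, filter, scaling, moderation, libraries fitted, the replicate block and single libraries.

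Gene lists were built from the symbols in the deposited tables; CEHC1 has an identifier only. The members and lists were chosen with earlier results of these data known. Named genes were CEHC1, CRR1, the 10 largest rises and 10 largest falls among called genes without overlap that have a symbol, 2 of each without one, and in each list up to 4 called genes of largest difference and the gene of highest mean. Other genes given by a value alone came from the list tables. Adjacent genes were read from a RefSeq gene table of assembly version 5.5, with no coordinates used. No sequences were given for these genes.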

Additional observations from a re-analysis of the deposited data

How the results depend on the processing

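The direction of every named called gene was kept under all alternatives run, apart from PSBR1, which quantile normalization set to 0.00 as a gene of equal rank in all libraries. With no minimum difference 6864 genes passed, 3796 higher and 3068 lower, the largest shift in counts among the alternatives. With a minimum mean of 5 FPKM 228 genes were called lower, and with a pseudocount of 0.1 815 were. A pseudocount of 5 gave 550 calls, 385 higher and 165 lower. Leaving out 1 library at a time gave 965 to 1216 calls, 567 to 690 higher and 398 to 526 lower, with 17 to 19 genes switched off and 0 to 3 switched on. The genes switched on appeared without rescued replicate 1 (3 genes) and without rescued replicate 2 (1 gene). Of the 146 named called genes, 142 were still called after median ratio rescaling, 114 after quantile normalization and 120 with a pseudocount of 5, and a minimum mean of 5 FPKM left 20 of them untested. Samples with the same replicate number deviated together by correlations of 0.01, 0.11 and 0.12, so the numbers were not taken to pair the samples; with the replicate number as a block 1069 genes were called. Fitting all 9 libraries gave 1067 calls. Since depth is unknown, no counting error can be set on single values, and genes near 1 FPKM are the least certain.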

Other observations

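Called genes were in several cases neighbours on the chromosome. The order of genes in the v5.5 assembly could be read for 10920 tested genes (94.0%), which form 7382 adjacent pairs. In 23 pairs both genes were called lower in the rescued strain, in 38 both were called higher and in 33 the 2 genes were called in opposite directions. Over all tested genes 3.85% were called lower and 5.32% higher. Whether the pairs exceed what these shares alone would give was not tested. The lower pairs, chosen for mention after their values were seen, included HYDG1 and HYDEF1, the hydrogenase maturation genes (-5.21 and -3.22), PFH9 and PFH10 (-2.96 and -5.02), GOX17 and GOX19 (-4.34 and -2.08), FAP310 and FAP212 (-3.00 and -2.97), LCI34 and LCI35 (-2.19 and -1.94), ACK1 and PAT2 (-1.09 and -1.46) and HCP3 and HCP2 (-2.43 and -1.15). BIP2, HSP90B and BIP1 lie side by side and fell by 5.70, 1.87 and 2.09 on the log2 scale. CYC6 has RFA3 beside it, which fell by 1.58. Several of the pairs named carry symbols of the same family, and how shared reads were assigned is not given.

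Metal and sensory genes changed singly rather than as lists, beside 5.32% of all tested genes called higher and 3.85% called lower. Of 11 tested iron genes 2 rose and 1 fell: IRT2, an iron-regulated transporter, had 0.167, 0.131 and 0.0831 FPKM in rescued and 4.83, 5.84 and 5.54 FPKM in mutant libraries (-2.50, SE 0.09, adjusted p = 5.4e-07), while the iron assimilation gene FEA2 rose by 1.72 and MSD3 is counted here too. The ferritin gene FER1 overlapped between the strains, with 60.1, 69.1 and 75.4 FPKM in rescued and 58.5, 61.6 and 60.7 FPKM in mutant libraries. ZRT2, a zinc transporter, was the 1 of 15 tested zinc genes called and fell by 1.72. CHR1, a channelrhodopsin of the eyespot, was the 1 of 6 photoreceptor genes called, with 59.3, 40.8 and 44.5 FPKM in rescued and 129, 127 and 138 FPKM in mutant libraries (-1.44, SE 0.13, adjusted p = 4.4e-05). METE1, the methionine synthase that works without vitamin B12, rose by 1.35, with 725, 574 and 641 FPKM in rescued and 228, 263 and 265 FPKM in mutant libraries; after quantile normalization its difference was 0.82 and was not called.

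Redox and other enzyme families were mixed. Their counts stand beside 5.32% of all tested genes called higher and 3.85% called lower. Among 54 thioredoxins and antioxidant enzymes 6 rose and 3 fell; NTR2 was the largest fall, with 7.90, 6.39 and 7.16 FPKM in rescued and 38.8, 38.6 and 41.1 FPKM in mutant libraries, and GRX6, a glutaredoxin, rose by 1.97. After quantile normalization 2 of that list rose. Of 22 cytochrome P450 genes 2 rose and 2 fell, among them CYP51G1 of sterol synthesis, which fell by 1.18, and CYP97A5 of carotenoid synthesis, which rose by 1.23 and was not called after quantile normalization. Of 191 tested CGL and CPLD genes, named for conservation in the green lineage, 24 rose and 3 fell, with 14 rising after quantile normalization. Of 39 genes of the sulfur and phosphate starvation responses 1 fell, the sulfate transporter SULTR3, by 1.60, and of 24 starch genes 1 rose, the debranching enzyme ISA1, by 1.14.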
